A study of Mus musculus with 3 samples.

Results

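The fibroblast growth factor (FGF) and epidermal growth factor (EGF) families are described here across 3 samples of sorted mouse tumour stroma. Members were chosen by gene symbol, with no measured level in the rule, as every gene of either family (ligands, receptors and the intracellular FGFs) for which a probe set with exactly 1 symbol was present. This gave 41 of the 42 symbols sought, of 22087 named genes in all. The exception, Areg, which encodes amphiregulin, was not analysed here. Where a gene had several probe sets, the brightest was used.

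All 3 samples belonged to 1 group. They were labelled with the genotype Dicer1 +/-, which denotes a single intact copy of the gene of the endonuclease that matures microRNAs. The label does not say in which cells the other copy was lost. The samples came from tumours of mice that the series title codes as ASD. Live cells were sorted that lacked both PECAM1, found on the surface of endothelium, and the red fluorescent protein tdTomato, which marked the tumour cells. The sources used here do not give strain, age, tumour site or the driver of tdTomato. Whether the samples came from different animals is not stated either, and an SD below is the spread of these 3 samples, which may be technical. Stroma of Dicer1 +/+ tumours, which the series set beside this group, was not analysed here. The values below carry no information on the effect of Dicer1 itself, which stood at 8.10, 8.10 and 8.08 in samples 1, 2 and 3.

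FGFs are secreted proteins that bind heparan sulphate on the cell surface together with tyrosine kinase receptors, and in connective tissue they carry signals between mesenchyme and epithelium. The endocrine FGFs bind heparan sulphate weakly and need Klotho proteins as co-receptors, and a further group (Fgf11 to Fgf14) stays inside the cell and acts on ion channels. Ligands of the EGF family are made as membrane-bound precursors, are shed by proteases, and bind EGFR or the related ERBB receptors, which signal as pairs. Both families act through the RAS and MAP kinase cascade, and both switch on feedback inhibitors of it.

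Levels are log2 intensities of 1 array per sample, as deposited. The series has no detection calls, so a gene was called detected on an array when its level exceeded a reference, the 95th percentile over 1433 probe sets for receptors of smell, pheromones and taste, which stroma is not expected to express. This reference stood at 5.16, 5.11 and 5.21 in samples 1, 2 and 3, and the stricter 99th percentile at 6.37, 6.59 and 6.49. Probe sets differ in brightness, so levels of different genes were not ranked. Pecam1, the gene of the sorted-out surface protein, was nevertheless detected, at 8.02, 7.20 and 8.25. Markers of fibroblasts (8 of 8), pericytes (6 of 6), macrophages (6 of 6), neutrophils (6 of 6), dendritic cells (6 of 6) and T cells (6 of 6) were detected on all 3 arrays. Of the endothelial markers 5 of 6, of the epithelial markers 3 of 5 and of the glandular markers 2 of 7 were detected on all 3. The same held for 3 of 4 B cell, 6 of 6 mast cell, 6 of 7 muscle, 3 of 4 glial, 5 of 5 cartilage and bone and 3 of 4 adipocyte markers. Of all named genes outside the receptors used as reference 60.5% were detected on all 3 arrays, and of the protein-coding ones 66.8%. Counts near these shares do not show that a cell type was present.

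Both families were present in part. Of the 41 members 19 (46.3%) were detected on all 3 arrays, against 60.5% of all named genes outside the receptors used as reference and 66.8% of the protein-coding ones. On at least 1 array 22 of 41 members (53.7%) were detected, against 66.0% of all named genes. By role, 7 of 9 receptors and 11 of 28 secreted ligands were detected on all 3 arrays. Under the 99th percentile 5 of 41 members (12.2%) stayed above the reference on all 3 arrays, namely Egfr, Fgfr1, Fgfrl1, Hbegf and Nrg1. The others lay below that level on at least 1 array. A stricter level can only lower such a count, and the share of all genes above it was not computed.

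**Figure D1:**
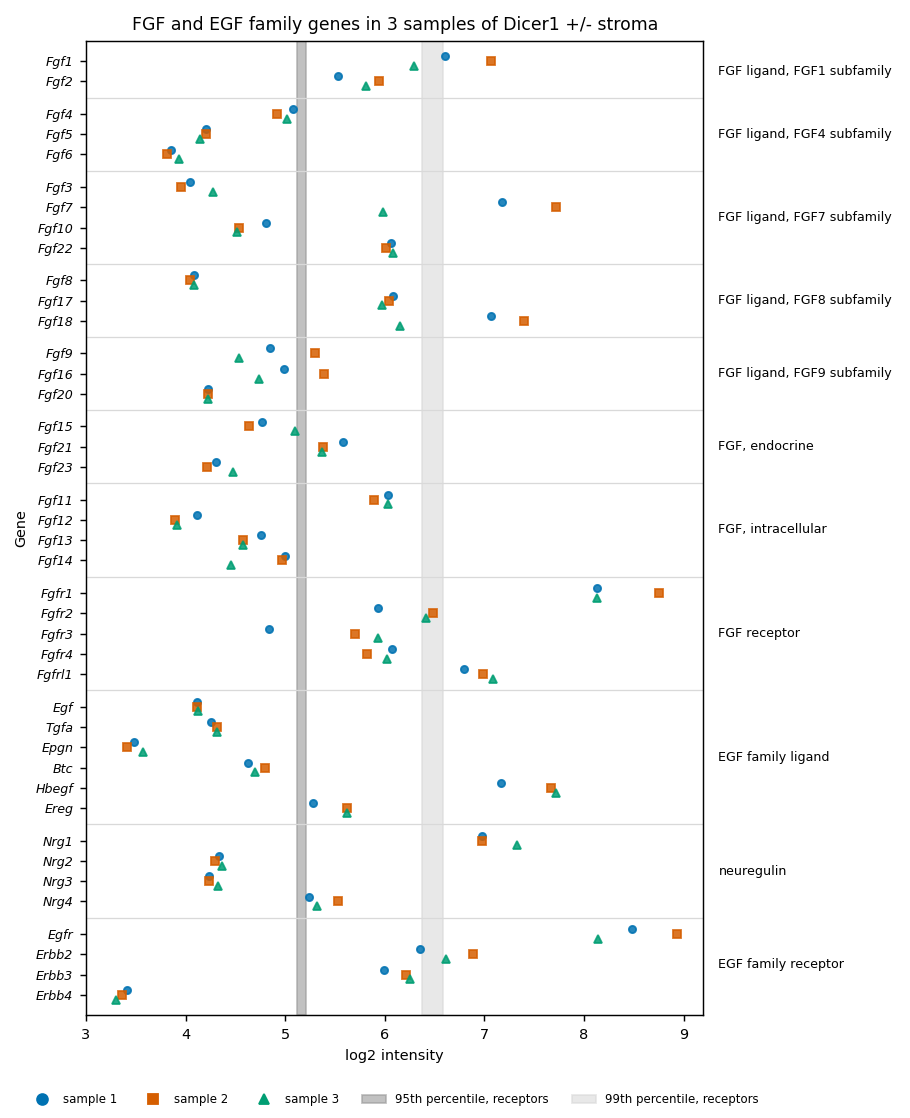
Log2 intensity (x axis) of the 41 measured FGF and EGF family genes (y axis, grouped by role) in samples 1, 2 and 3 of Dicer1 +/- stroma, 1 point per sample. The dark and light bands span the 95th and 99th percentiles of the receptor probe sets over the 3 arrays. Egfr and Fgfr1 lie far to the right of both bands in every sample, while Fgf7 and Fgf18 are spread over more than 1 log2 unit.

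A pair of ligands, Fgf7 and Fgf18, and a receptor, Fgfr3, spanned more than 1 log2 unit, that is more than 2-fold, between the 3 samples. The sequences before the transcription start of these 3 genes are shown because they are the members that differed most from sample to sample. They were taken from RefSeq (GRCm38.p6), which held windows for 29 of the 41 members. Each runs 5′ to 3′ on the strand of the gene, 250 bases up to the start. Capitals mark matches, on either strand, to the letters searched: TATAAA for the TATA box, GGGCGG for the GC box, CCAAT for the box of that name, TGAGTCA for AP-1, TGACGTCA for CRE, CACGTG for the E-box and CCGGAAG for ETS factors. The GC box and the other motifs were searched with overlaps allowed. The windows are chr2:126034408-126034657 (plus strand) for Fgf7, chr11:33147401-33147650 (minus strand) for Fgf18, and chr5:33721474-33721723 and chr5:33722056-33722305 (plus strand) for a pair of Fgfr3 starts.

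Fgf7: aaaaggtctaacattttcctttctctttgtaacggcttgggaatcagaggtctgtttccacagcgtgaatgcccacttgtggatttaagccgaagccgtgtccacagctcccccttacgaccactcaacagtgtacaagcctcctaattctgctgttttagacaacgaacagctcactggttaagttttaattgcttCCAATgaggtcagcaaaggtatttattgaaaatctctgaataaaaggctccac

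Fgf18: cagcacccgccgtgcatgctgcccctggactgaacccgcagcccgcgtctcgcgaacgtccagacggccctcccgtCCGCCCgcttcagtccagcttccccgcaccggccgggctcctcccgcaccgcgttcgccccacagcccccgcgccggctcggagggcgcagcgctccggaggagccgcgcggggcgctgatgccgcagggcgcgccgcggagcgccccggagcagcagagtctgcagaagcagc

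Fgfr3, upstream start: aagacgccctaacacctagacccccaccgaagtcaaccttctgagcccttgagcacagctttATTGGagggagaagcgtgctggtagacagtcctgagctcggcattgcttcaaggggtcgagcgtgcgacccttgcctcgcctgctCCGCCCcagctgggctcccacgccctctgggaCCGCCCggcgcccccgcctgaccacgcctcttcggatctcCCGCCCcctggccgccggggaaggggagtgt

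Fgfr3, downstream start: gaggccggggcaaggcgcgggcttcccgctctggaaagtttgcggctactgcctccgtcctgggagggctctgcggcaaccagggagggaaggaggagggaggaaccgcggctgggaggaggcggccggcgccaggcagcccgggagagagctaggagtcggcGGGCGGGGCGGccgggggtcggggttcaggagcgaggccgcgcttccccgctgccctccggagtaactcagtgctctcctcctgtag

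The Fgf7 and Fgf18 sequences differed in composition. The Fgf7 window held 43.6% G and C, with a CCAAT match 53 bases before the start and no GC box. The Fgf18 window held 77.2% G and C, with a GC box match 174 bases before the start. The upstream Fgfr3 window had GC box matches 103, 71 and 31 bases and a CCAAT match 188 bases before the start, and the downstream one had overlapping GC boxes at 87 and 82 bases. Over windows of 300 bases, which include 50 bases after the start, a GC box was found in 54.1% of 37 member windows and in 35.7% of 32851 windows of all genes. A CCAAT match was found in 27.0% of member windows and in 37.4% of all. The TATA box occurred in 10.8% of member windows and 13.6% of all, AP-1 in 2.7% and 5.2%, E-box in 10.8% and 7.15%, ETS in 8.11% and 8.86%, and CRE in none of the member windows and 1.79% of all. The median share of G and C was 62.3% in member windows and 52.7% in all windows. Members detected on all 3 arrays (12 windows) had a median of 62.5%, and members detected on none (22 windows) 60.5%. A match is a description of the sequence, and nothing follows from it about a factor.

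Among the FGF ligands that signal to neighbouring cells, the FGF7 subfamily was represented by Fgf7 and Fgf22. Fgf7, keratinocyte growth factor, is made by fibroblasts and acts on epithelial cells through a splice form of FGFR2. It stood at 7.17 in sample 1, 7.72 in sample 2 and 5.98 in sample 3 (6.96 ± 0.89, SD, n = 3). The highest sample exceeded the lowest 3.34-fold, and this range of 1.74 lay at percentile 99 of the 13713 genes detected on at least 1 array. Without sample 3 the range was 0.55. Fgf10, the close relative of Fgf7 that directs branching of epithelia, was below the reference in every sample, at 4.81, 4.53 and 4.52, and so was its second probe set. Fgf22 stood at 6.07, 6.01 and 6.08, and Fgf3 was below the reference.

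In the FGF8 subfamily Fgf18, a growth factor of skeletal and connective tissue, was detected at 7.07, 7.40 and 6.15 in samples 1, 2 and 3 (6.87 ± 0.65, SD, n = 3). It had the same order of samples as Fgf7, with sample 2 highest and sample 3 lowest, and a 2.38-fold span. Without sample 3 its range was 0.33, from 1.25. Fgf17 was detected at 6.08, 6.05 and 5.97, with a range of 0.11. Fgf8, an early embryonic organizer, stood at 4.08, 4.05 and 4.08, below the reference on each array.

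The FGF1 subfamily, which lacks a classical secretion signal, was detected with both its members. Fgf1, a ligand of all FGF receptors, stood at 6.60, 7.07 and 6.29 (6.65 ± 0.39, SD, n = 3). Sample 2 was again highest and sample 3 lowest. Fgf2, the basic fibroblast growth factor, stood at 5.53, 5.94 and 5.81 (5.76 ± 0.21, SD, n = 3), with sample 1 lowest.

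In the FGF9 subfamily no member passed on all arrays. Fgf9, which signals from epithelium and mesothelium to mesenchyme in development, stood at 4.85, 5.30 and 4.54, and Fgf16 at 4.99, 5.39 and 4.74. Each passed the reference in sample 2 alone. Fgf20 lay at 4.23, 4.22 and 4.23, and Fgf4, Fgf5 and Fgf6, the FGF4 subfamily, lay below the reference in every sample, between 3.82 and 5.08.

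Of the endocrine FGFs only Fgf21, a metabolic hormone made mainly by liver, was called detected. It stood at 5.58, 5.38 and 5.37, and its smallest distance above the reference was 0.16. Its co-receptor gene Klb was listed at 4.08 in every sample, and Kl, the co-receptor gene for Fgf23, at 4.03, 4.03 and 4.04, all below the reference. Fgf15 (the mouse counterpart of human FGF19) and Fgf23 were below it too. Of the intracellular FGFs Fgf11 was detected, at 6.03, 5.89 and 6.03, with equal values in samples 1 and 3. Fgf12, Fgf13 and Fgf14, best known from neurons, lay below the reference in every sample.

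All 4 kinase receptors for FGFs were detected on at least 1 array. Fgfr1, the main FGF receptor of mesenchymal cells, stood at 8.13, 8.76 and 8.13 (8.34 ± 0.36, SD, n = 3), so that sample 2 was higher and the others differed by 0.00026. Fgfr2, whose splice forms read ligands from mesenchyme in epithelium and the reverse, stood at 5.93, 6.49 and 6.41 (6.28 ± 0.30, SD, n = 3). Splice forms cannot be told apart with 1 value per gene. Fgfr4 stood at 6.07, 5.82 and 6.02. Fgfrl1, a receptor-like protein without a kinase domain, stood at 6.80, 6.99 and 7.09.

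Fgfr3, a receptor known for restraining growth of cartilage, was below the reference in sample 1, at 4.84, and above it in samples 2 and 3, at 5.70 and 5.93 (5.49 ± 0.58, SD, n = 3). Its range of 1.10 lay at percentile 95.5 of detected genes, and without sample 1 it was 0.23. Its lowest value is below the reference, so the 2.14-fold span has little precision. The cartilage and bone markers had the same order, with all 5 lowest in sample 1 and highest in sample 3, and median deviations from the mean of -0.82, 0.09 and 0.70 in samples 1, 2 and 3. Acan, the cartilage proteoglycan, stood at 8.10, 9.07 and 9.94. The part of these cells in the Fgfr3 values was not tested.

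EGF family ligands were detected with few members. Hbegf, the heparin-binding ligand of EGFR and ERBB4, stood at 7.17, 7.67 and 7.72 (7.52 ± 0.30, SD, n = 3), with sample 1 lowest. Ereg, epiregulin, passed through 1 of its probe sets alone. That probe set stood at 5.28, 5.62 and 5.62, with equal values in samples 2 and 3, and the other at 4.81, 4.90 and 4.65, below the reference. The level of Ereg is therefore uncertain. Egf, Tgfa, Btc and Epgn were below the reference in every sample, Egf at 4.11, 4.12 and 4.13, Tgfa at 4.25, 4.32 and 4.32, Btc at 4.63, 4.80 and 4.69 and Epgn at 3.48, 3.42 and 3.57. A level below the reference does not show that a transcript was missing.

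Of the neuregulins, ligands of ERBB3 and ERBB4, Nrg1 was detected at 6.98, 6.98 and 7.33 (7.10 ± 0.20, SD, n = 3) and Nrg4 at 5.23, 5.53 and 5.32. Nrg4 passed by as little as 0.071. Nrg2 and Nrg3 lay between 4.24 and 4.37. Nrg1 serves Schwann cells among others. Of the 4 measured glial markers, Sox10 stood at 5.88, 6.12 and 5.94, S100b at 8.11, 8.37 and 8.13 and Mbp at 6.97, 7.24 and 7.29. Cdh19, at 4.67, 5.24 and 4.85, passed the reference in sample 2 alone. Sox10, S100b and Cdh19 were highest in sample 2, whereas Mbp and Nrg1 were highest in sample 3. The part of glial cells in the Nrg1 values was not tested.

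Egfr, the receptor of EGF and of most ligands of the family, stood at 8.48, 8.93 and 8.14 (8.52 ± 0.40, SD, n = 3), with sample 2 highest and sample 3 lowest. Erbb2, the receptor that binds no ligand itself and pairs with the others, stood at 6.35, 6.88 and 6.62 (6.62 ± 0.27, SD, n = 3). Erbb3, which has little kinase activity of its own, stood at 5.99, 6.22 and 6.25 (6.15 ± 0.14, SD, n = 3). Erbb4 was below the reference in every sample, at 3.41, 3.36 and 3.30. Egfr, which binds the product of Hbegf, and Erbb3 with Erbb2, which bind that of Nrg1 as a pair, were thus all detected.

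Some members are neighbours on a chromosome. In the RefSeq annotation no protein-coding gene lies between Fgf3, Fgf4 and Fgf15 on chromosome 7, or between Fgf6 and Fgf23 on chromosome 6, and none of these 5 passed on any array, as was the case for 19 of the 41 members. Epgn, Ereg, Areg and Btc follow each other in the same way on chromosome 5, and of the measured ones Ereg alone passed.

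The spread over the samples was then compared with that of other genes. The 22 members detected on at least 1 array had a median range of 0.47, against 0.31 for all 13713 genes so detected. Of these members 3 (13.6%) exceeded a range of 1, against 5.71% of all genes. Among only the members detected on all 3 arrays the median range was 0.35, and 2 exceeded 1. The values for all genes under that filter were not computed, so how far the members differ from other genes is uncertain. The next members below this threshold were Egfr at 0.80, Fgf1 at 0.78 and Fgf9 at 0.76. With 1 array per sample no gene could be tested for a difference between samples. Sample 2 was the highest in 11 of 22 members (50.0%), against 32.5% of all genes, and sample 1 the lowest in 10 (45.5%), against 31.3%. Sample 3 was the highest in 6 (27.3%), against 32.8%, and the lowest in 9 (40.9%), against 33.3%. Sample 1 was the highest in 3 (13.6%), against 28.8%, and sample 2 the lowest in 3, against 29.3%, with ties left out. The order with sample 2 highest and sample 3 lowest was found in 7 of 22 (31.8%), namely Fgf1, Fgf7, Fgf9, Fgf16, Fgf18, Fgfr1 and Egfr, against 17.9% of all genes. Of these, Fgf9 and Fgf16 were below the reference in samples 1 and 3. They entered the 22 through sample 2 alone, which all but fixed sample 2 as their highest. Their place in these counts therefore says nothing about the members. The shares of all genes were taken under the same filter. Members with small ranges were Fgf22 at 0.069, Fgf17 at 0.11, Fgf11 at 0.14 and Fgf21 at 0.21.

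**Figure D2:**
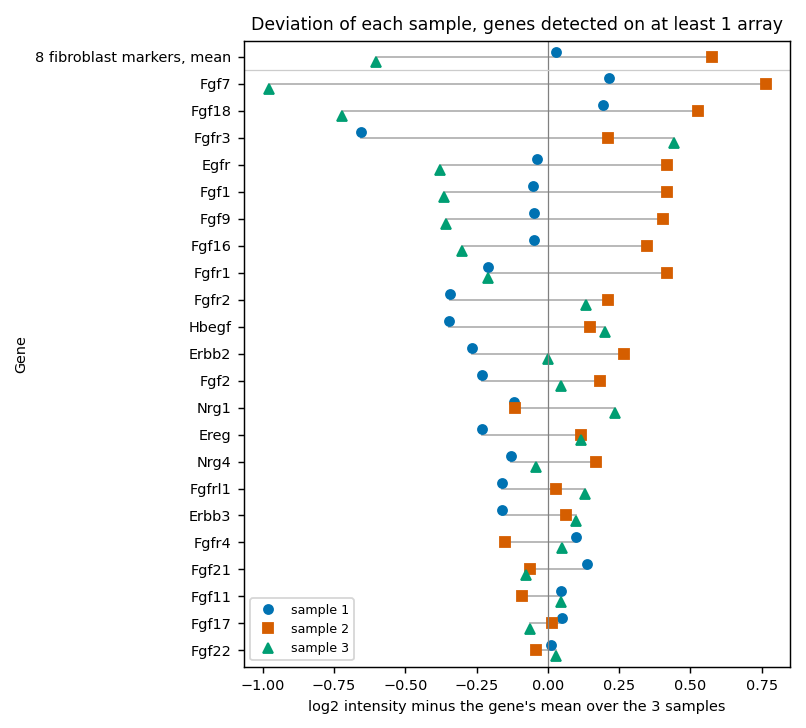
Deviation of each sample from the gene's mean over samples 1, 2 and 3 (x axis, log2) for the 22 members detected on at least 1 array and, on top, for the mean of 8 fibroblast markers. Genes run from the largest range (Fgf7, 1.74) at the top to the smallest (Fgf22, 0.069). Points are offset slightly in height so that equal values stay visible.

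Fibroblast markers followed the order of Fgf7. In all 8 of them sample 2 was highest and sample 3 lowest. Their mean stood at 10.35, 10.89 and 9.71 in samples 1, 2 and 3. Pdgfra, a receptor that marks fibroblasts, stood at 8.55, 9.24 and 7.82. All 6 pericyte markers were also highest in sample 2, with median deviations of -0.062, 0.61 and -0.55. Mast cell markers had the same order of medians, at -0.11, 0.31 and -0.36, with 4 of 6 highest in sample 2. Of the macrophage markers 4 of 6 were highest there too, against 32.5% of all genes. Their median deviation, however, was highest in sample 1, at 0.29, against 0.26 in sample 2. Of the 6 glandular markers detected on at least 1 array 4 were highest in sample 2 and 2 in sample 3. Their median deviations were -0.38, 0.74 and -0.37. Lipf, at 3.11, 9.24 and 3.42, and Bpifb1, at 3.92, 9.36 and 4.91, passed the reference in sample 2 alone. The part of gland cells in the members' values was not tested. In such sorted bulk samples, fewer cells of a type and less RNA per cell cannot be told apart. Taken relative to the fibroblast mean on each array, a measure chosen after the data were seen, the range of Fgf7 was 0.56 in place of 1.74 and that of Fgf18 was 0.28 in place of 1.25. The range of Egfr was 0.38 in place of 0.80, that of Fgf1 0.40 in place of 0.78, that of Fgf9 0.42 in place of 0.76 and that of Fgf16 0.53 in place of 0.65. This measure narrows by construction the genes that have the order of the fibroblast mean, which itself spanned 1.18, and a large enough range, and it widens genes that varied little. The values are therefore a description. Of the 22 members 6 became narrower and the other 16 wider. Fgf9 and Fgf16, among the 6, had passed the reference in sample 2 alone. Among all 13713 genes detected on at least 1 array 966 (7.04%) became narrower. Fgfr1, despite its peak in sample 2, had a range of 0.63 either way, and that of Fgfr3 was 1.73 in place of 1.10.

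**Figure D3:**
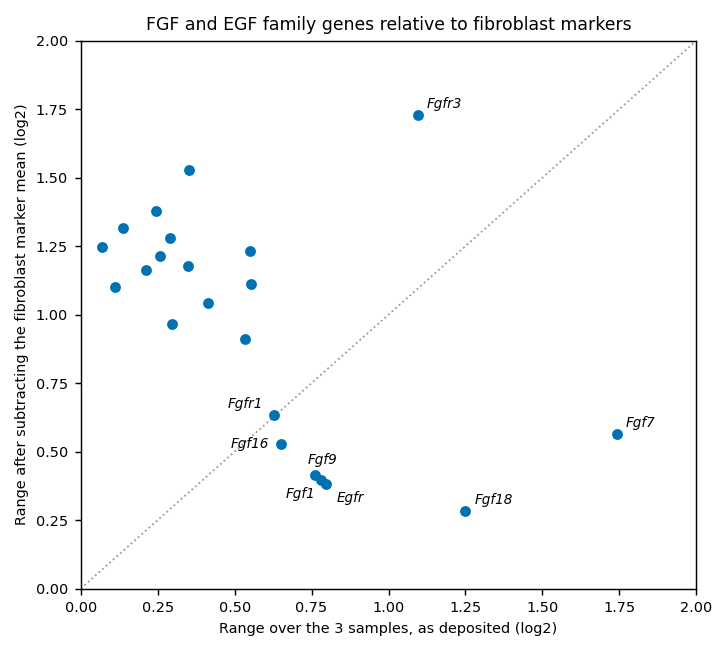
Range of each of the 22 detected members over the 3 samples as deposited (x axis, log2) and after the mean of 8 fibroblast markers was subtracted on each array (y axis, log2), 1 point per gene, with names given for deposited ranges above 0.6. Points below the dotted line of equality became narrower, and these are Fgf7, Fgf18, Egfr, Fgf1, Fgf9 and Fgf16.

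Of 17 co-receptor and binding protein genes, which help FGFs to bind, 11 were detected on all 3 arrays, a share near the 60.5% of all named genes. Among them were the heparan sulphate carriers Sdc1 to Sdc4. The members with the largest ranges were Flrt2, a membrane protein that binds FGF receptors and guidance receptors, at 7.33, 7.96 and 6.38, Sdc2 at 9.07, 9.82 and 8.70, Gpc3 at 8.78, 8.87 and 7.97 and Gpc6 at 8.25, 8.85 and 8.14. All 4, picked by range, had their highest level in sample 2 and their lowest in sample 3, the order of the fibroblast markers. Of the 12 detected members 7 were highest in sample 2, against 32.5% of all genes, and 4 in sample 3, against 32.8%. Sample 3 was the lowest in 6, against 33.3%. Gpc1, at 7.24, 7.52 and 7.90, was lowest in sample 1 and highest in sample 3. Over the 12 detected members the median range was 0.46, and 2 exceeded 1, against 5.71% of all genes.

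Genes of the signal relay carry the message of both families inside the cell. All 13 measured adaptors, RAS proteins and kinases passed on every array, against 66.8% of protein-coding genes, with a median range of 0.21, against 0.31 for all genes, and none above 1. The largest ranges belonged to the docking proteins Gab2, at 8.46, 9.23 and 9.07, and Gab1, at 7.86, 8.56 and 8.11. Braf stood at 8.48, 8.73 and 9.08 and the adaptor Grb2 at 9.18, 8.80 and 9.13. A further 6 genes of this list were not analysed here.

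Genes that MAP kinase signalling is known to switch on were detected on all 3 arrays in 15 of 16 cases, against 66.8% of protein-coding genes, with Spred3 on 2. Their median deviations were -0.11, 0.24 and -0.14 in samples 1, 2 and 3, a difference of 0.38, and 10 of 16 were highest in sample 2, against 32.5% of all genes. Without sample 2 the difference was 0.032. Spry4, a feedback inhibitor of receptor signalling, stood at 6.56, 7.47 and 6.49, and Spry1, of the same family, at 7.44, 7.88 and 7.07. Etv1, a transcription factor of the pathway, stood at 7.21, 7.25 and 6.36, and Il17rd, an inhibitor of FGF signalling, at 6.34, 6.89 and 6.11. Dusp6, the phosphatase that turns off ERK, had another order, at 10.38, 10.13 and 10.11. Dusp4, Dusp5, Phlda1 and Ier3 were highest in sample 3. No gene of this list had a range above 1.

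Regulators of the EGF receptor and the shedding machinery were detected in every sample, 8 of 8 and 6 of 6, against 66.8% of protein-coding genes. Lrig1, which promotes breakdown of the receptor, stood at 6.64, 7.07 and 6.36, and Errfi1, an inhibitor of its kinase, at 8.82, 9.47 and 9.04. The ubiquitin ligase Cbl stood at 9.03, 9.16 and 9.72 and Lrig3 at 7.01, 7.60 and 7.41. Adam17, the main protease that sheds EGF family ligands, was nearly level, with a range of 0.056. Its partners Rhbdf1 and Rhbdf2 went different ways, Rhbdf1 at 7.35, 7.79 and 6.91 and Rhbdf2 at 7.66, 7.89 and 8.31. Adam12 stood at 7.14, 6.82 and 6.63, and Timp3, an inhibitor of Adam17, at 10.88, 11.18 and 10.93.

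**Figure D4:**
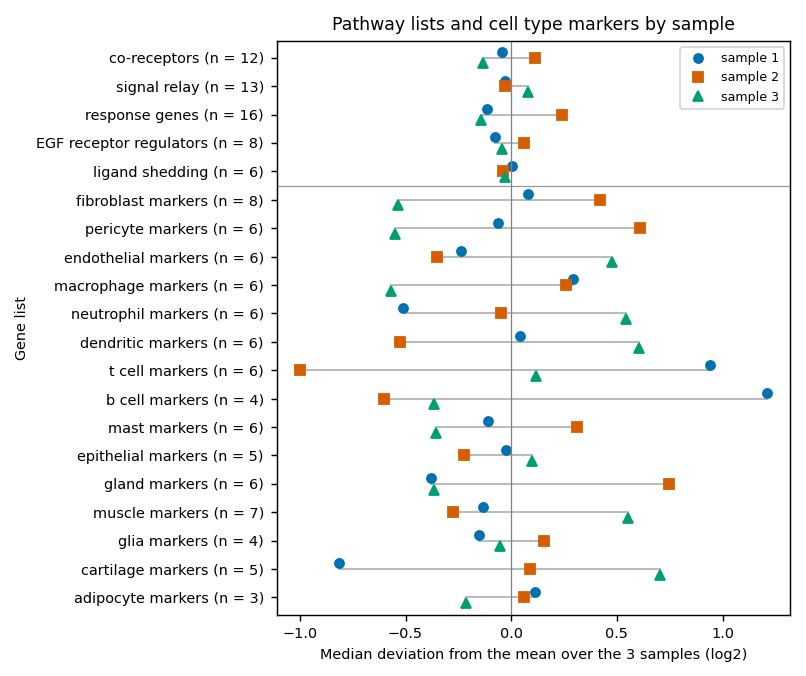
Median deviation from the mean over the 3 samples (x axis, log2) for the pathway lists (above the line) and the cell type markers (below it), 1 point per sample, over the members of each list detected on at least 1 array (n beside the name). The pathway lists differ by 0.045 to 0.38 between samples and the cell type markers by 0.31 (glia) to 1.94 (T cells).

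The medians of the cell type markers differed between samples by 0.31 (glia) to 1.94 (T cells). Those of the pathway lists differed by 0.045 (shedding) to 0.38 (response genes). Of the pathway lists the response genes alone exceeded any cell type, namely the glial, epithelial (0.32) and adipocyte (0.33) markers. The next pathway list, the co-receptors, differed by 0.24. The fibroblast medians deviated by 0.077, 0.42 and -0.54, those of macrophages by 0.29, 0.26 and -0.57, those of neutrophils by -0.51, -0.047 and 0.54, and those of T cells by 0.94, -0.999 and 0.12 in samples 1, 2 and 3. Endothelial markers deviated by -0.24, -0.35 and 0.48. Fgfr3, Hbegf, Nrg1, Fgfrl1 and Erbb3, with sample 1 lowest and sample 3 highest, shared that order with the medians of the neutrophil and cartilage markers. The share of all genes with this order was not computed, so the match in order says little. Samples 1 and 2 differed by only 0.0008 in Nrg1, and samples 2 and 3 by 0.035 in Erbb3 and 0.054 in Hbegf. Of the 6 neutrophil markers 4 were lowest in sample 1, while S100a8 was highest there and S100a9 was lowest in sample 2. The part of these cells in the members' values was not tested.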

How the data were processed

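Total RNA of 3 samples of sorted stroma was labelled with biotin and read on Affymetrix arrays. The authors deposited log2 intensities, 1 per probe set and array, in 31873 probe sets. Partek is named as a tool per the submitters' processing notes, with no version or role, and the sources used here do not give background correction, normalization or probe summarization. The scale was read from the values, which ran from 2.00 to 13.18 with array medians of 5.35, 5.34 and 5.36. In 15.5% of probe sets at least 1 pair of arrays had equal values, which can make an SD too small.

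GEO's platform annotation named 1 gene for 23094 probe sets, several genes for 1764, and 7015 were unnamed here. Probe sets with 1 symbol were used, and all 41 members matched a RefSeq gene. Detection, the range over samples (threshold 1) and list medians were computed with Python 3.11.15 and pandas 2.3.3 and tested on simulated data. No test between samples was possible. The number of arrays limits the precision. All members were named, with the 4 members of largest range in each of 5 pathway lists, and markers of 15 cell types. Members and lists were chosen with earlier results of these data known. Lists were counted as detected on 3 arrays or on at least 1. Marker genes named singly were chosen after their values were seen.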

Additional observations from a re-analysis of the deposited data

How the results depend on the processing

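Detection depended on the reference level. With the 99th percentile 5 members were detected on all 3 arrays and 9 on at least 1, against 19 and 22, and with keratin-associated protein, defensin and cornified envelope probe sets as reference, a choice made after seeing the data, 7 were detected on all 3. With the 90th percentile these counts were 27 and 28. The shares of all genes under these other references were not computed. The count of members with a range above 1, which was 3, was 8 at a threshold of 1.5-fold, 1 at a log2 range of 1.5 and 13 after the fibroblast mean was subtracted. Among all genes detected on at least 1 array a log2 range of 0.58, about 1.5-fold, lay at percentile 80 and one of 1.43 at percentile 98. The fibroblast mean itself spanned 1.18, so its subtraction lifts genes that varied little above 1 by construction. The share of all genes so lifted was not computed. Leaving out each sample in turn gave 19 to 20 members detected on all remaining arrays, 20 to 22 on at least 1, and 0 to 2 with a range above 1, where 0 was without sample 3. The median range of 0.47 became 0.21 to 0.37, and the difference of the response list, 0.38, became 0.032 to 0.40, where 0.032 was without sample 2. Centring and quantile normalization moved none of the 22 member ranges by more than its SD. Of these members only Ereg has several probe sets, and its range of 0.35 was 0.22 with their mean and 0.25 with the dimmer one. The fewer samples or the changed threshold account for some of these shifts by construction, and for the others the cause was not tested. No paired analysis was possible because there was 1 group.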
